A study of Homo sapiens with 35 samples.

Results

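The transcripts of 8 genes for Fc receptors of immunoglobulin G (IgG) and immunoglobulin E (IgE) were followed through RNA-seq read counts of 4 human leukaemia cell lines. The genes were picked by name from 59428 gene rows that 2 deposited count tables share: FCGR1A, FCGR2A, FCGR2B, FCGR2C, FCGR3A, FCGRT, FCER1G and FCER2. They were picked with earlier results of these counts known, so every fold change and adjusted p below describes them and counts of genes passing the test are set beside the share of all genes that passed. The series compares acute myeloid leukaemia lines whose guides target SUV39H1 and SUV39H2, which encode histone H3 lysine 9 methyltransferases. The 35 libraries fall into 13 groups. U937 and THP-1, lines with monocytic features, each had 3 libraries of cells with a control guide RNA (sgControl), 3 of cells labelled as a knockout of SUV39H1 (single knockout, SKO) and 3 labelled as a knockout of SUV39H1 and SUV39H2 (double knockout, DKO). The same 3 labels were sampled in U937 cells given an agent named TPA, at a dose and time not stated, again with 3 libraries to a label. Control and SKO cells of the line MOLM-13 and control and DKO cells of the line OCI-AML-3 gave 2 libraries per group. Media held 10% fetal bovine serum, or 20% for OCI-AML-3, and THP-1 medium also held 50 nM BME. Column names give clone 1 for THP-1 sgControl and SKO and clone 3 for untreated U937 DKO, and no label states whether the libraries of a group are separate cultures. The p-values therefore measure spread between libraries that may be technical.

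Fc receptors bind the constant region of antibodies. FCGR1A, FCGR2A, FCGR2C and FCGR3A encode activating receptors for IgG, which signal through an immunoreceptor tyrosine-based activation motif that FCGR2A and FCGR2C carry themselves and that FCGR1A and FCGR3A borrow from the adaptor chain encoded by FCER1G. FCGR2B encodes the inhibitory IgG receptor, which recruits the phosphatase encoded by INPP5D. FCGRT encodes the heavy chain of the neonatal Fc receptor, which pairs with beta-2 microglobulin and returns IgG from endosomes to the cell surface. FCER2 encodes CD23, the low-affinity IgE receptor and a lectin rather than an immunoglobulin-like receptor. On monocytes and macrophages these receptors link antibodies to phagocytosis, oxidative burst and cytokine release.

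Counted reads per library ranged from 31985767 to 61178704. Monocyte and myeloid markers fitted the label in part. In every group 5 to 7 of 8 had a mean CPM (read counts scaled to a common library total) of at least 1, CSF1R, LYZ and SPI1 among them. CD68 was below 1 CPM in every group and MPO in every U937 group. CD14 was below 1 CPM in all untreated U937 groups (0.0952 CPM in sgControl) and in both MOLM-13 groups. The summed level of the 8 markers was 1360 to 1420 CPM in MOLM-13 sgControl libraries and 8640 to 8710 in SKO libraries, mostly LYZ. The integrin gene ITGAM, on the same list, was at 4.24 CPM in U937 sgControl, 70.2 in SKO and 139 in DKO libraries, and its part in the results below was not tested. Of 6 B cell markers, MS4A1 and CR2 had no read in untreated U937, while PAX5 stood at 19.1 CPM in its sgControl and 5.06 in its DKO libraries. SUV39H1 itself was not lower in untreated SKO and DKO libraries of U937 and THP-1. It stood at 66.7 ± 4.06 CPM (SD, n = 3) in U937 sgControl and 112 ± 4.13 in SKO, so SKO and DKO are used here as labels only. It was lower in MOLM-13 SKO libraries (7.75 ± 0.66 against 28.6 ± 1.47, n = 2 each) and in OCI-AML-3 DKO libraries (3.53 ± 1.09 against 35.3 ± 1.21, n = 2 each), and its U937 levels under TPA were 36.7 CPM for sgControl, 53.6 for SKO and 22.6 for DKO. SUV39H2 stood at 19.3 ± 1.91 CPM in OCI-AML-3 DKO against 23.7 ± 3.31 in sgControl. In SKO libraries it is not a labelled target. In MOLM-13 SKO it was at 12.5 ± 0.95 against 27.4 ± 1.63. It was also lower in THP-1 SKO (20.1 ± 1.05 against 31.0 ± 0.876) and untreated U937 SKO (35.4 ± 0.704 against 43.2 ± 1.85). TPA-treated U937 SKO had 20.8 ± 0.463 CPM of SUV39H2 against 20.1 ± 0.688. THP-1 DKO libraries had 13.4 to 14.5 CPM against 30.1 to 31.9, U937 DKO libraries 30.4 to 35.2 against 41.0 to 44.4, and TPA-treated U937 DKO libraries 9.43 to 10.8 against 19.4 to 20.7. Untreated U937 and THP-1 stand in one deposited table and the TPA, MOLM-13 and OCI-AML-3 libraries in the other, so TPA and table cannot be told apart. Column names hold a 6-digit string, whose meaning is not given, that is the same for U937 sgControl and SKO and missing for U937 DKO, and that differs between THP-1 DKO and the other THP-1 groups, so what it marks and the DKO label cannot be told apart. The SUV39H2 guide in the column names of U937 DKO carries another number than that of THP-1 DKO.

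**Figure D1:**
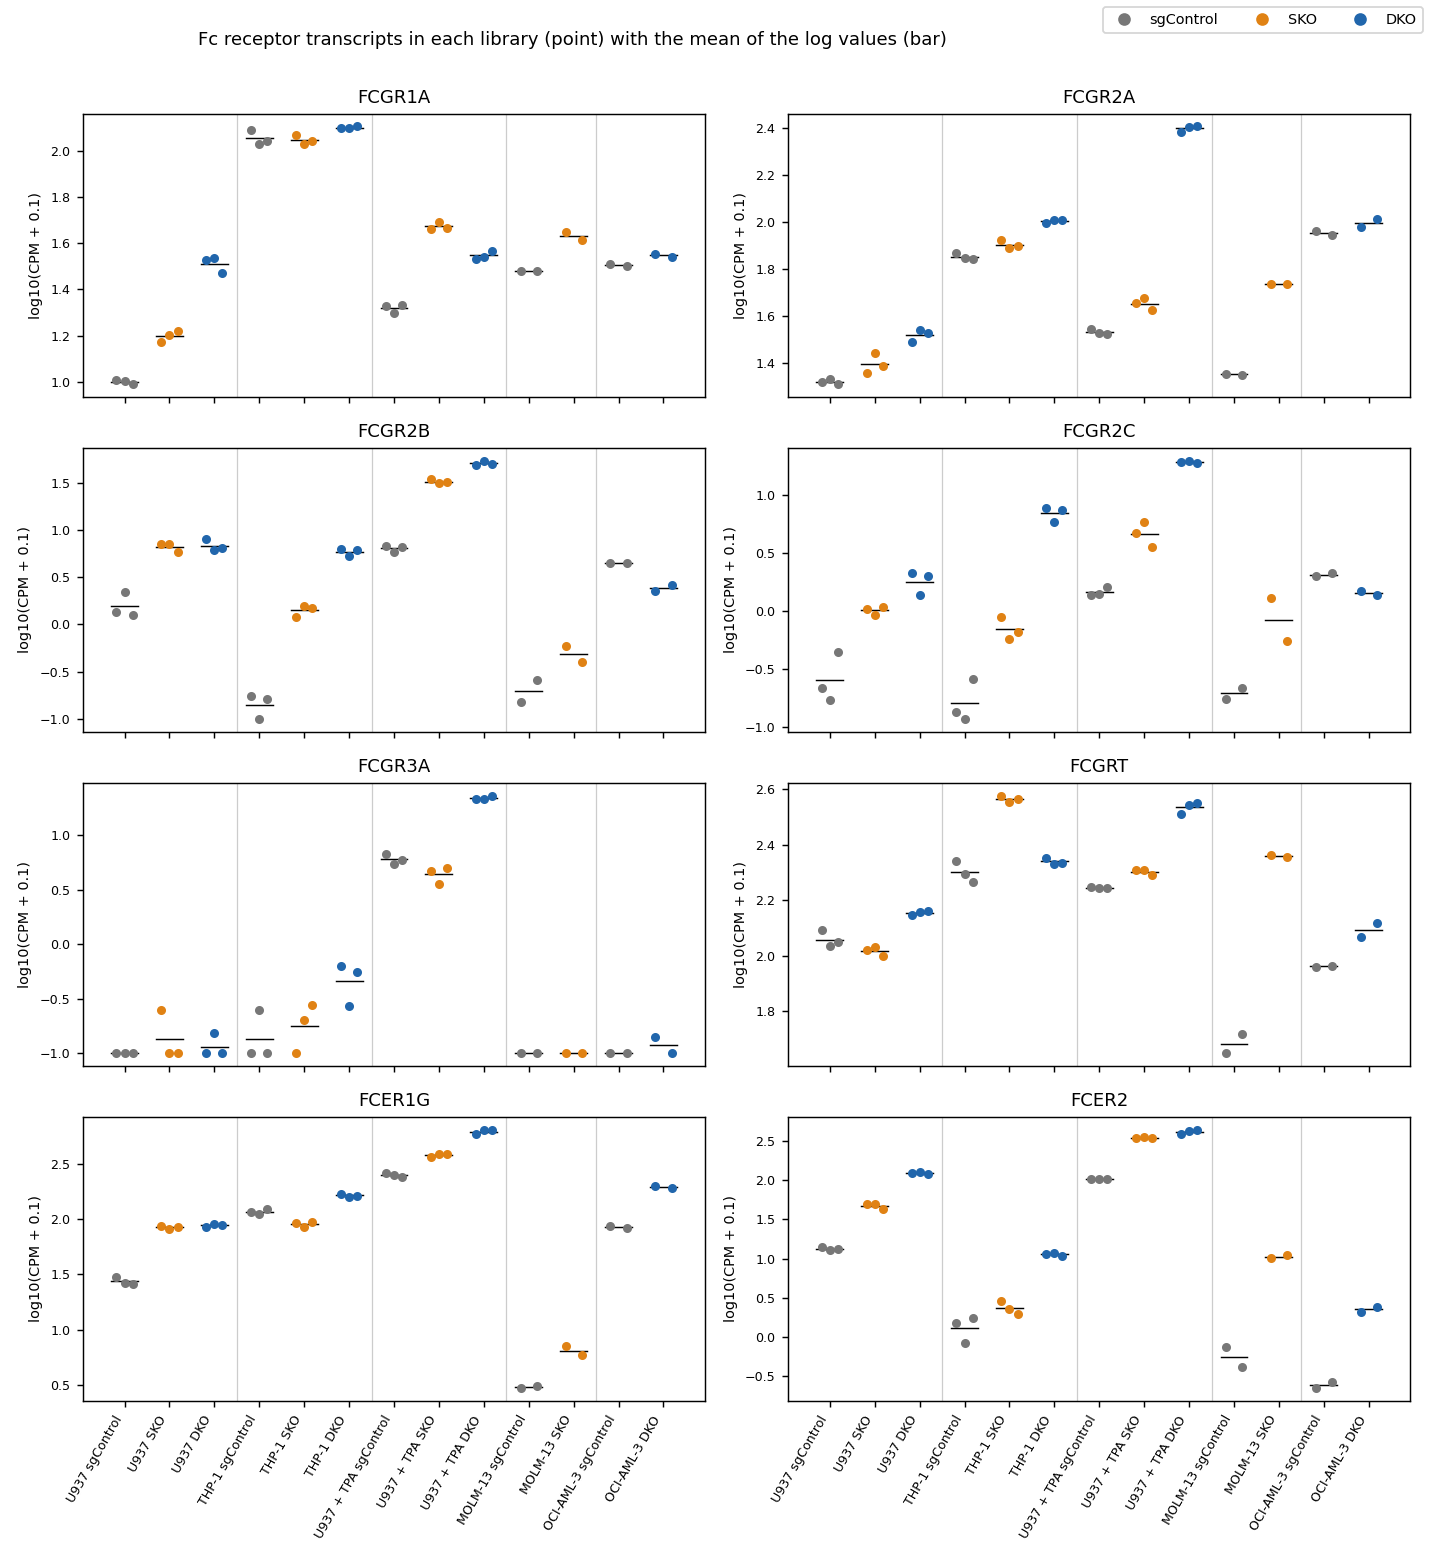
Level of each of the 8 genes in all 35 libraries, on a log10(CPM + 0.1) axis that differs between panels, with points for libraries, bars for group means of the log values and colours for the label. FCER2 sits higher in the SKO and DKO libraries than in the sgControl libraries of each line, and FCGR3A reaches 1 CPM only in TPA-treated U937.

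Levels are CPM scaled by edgeR's trimmed mean of M-values, and fold changes are log2 differences ± SE from edgeR's quasi-likelihood test, with adjusted p by Benjamini-Hochberg over all genes of a fit and a threshold of 0.05. Every one of the 8 genes had reads in several groups, but FCGR3A failed the low-count filter in untreated U937, MOLM-13 and OCI-AML-3, where 7 genes were tested. In U937, SKO libraries had 6 of 7 genes higher and 1 lower than sgControl, where 30.7% of all tested genes were higher and 31.2% lower. In U937 DKO 7 of 7 were higher, beside 33.2% of all genes higher and 34.5% lower. In THP-1 SKO 5 of 8 were higher and 1 lower (all genes 20.6% and 22.8%), and in THP-1 DKO 8 of 8 were higher (all genes 31.9% and 33.7%). FCGR3A entered the THP-1 test only through the DKO libraries, with 8 reads in sgControl and 16 in SKO. Under TPA, 7 of 8 were higher and 1 lower in U937 SKO (all genes 25.8% and 24.6%), and 8 of 8 were higher in DKO (all genes 34.1% and 36.5%). In MOLM-13 SKO 7 of 7 were higher (all genes 31.8% and 32.2%), and in OCI-AML-3 DKO 3 of 7 were higher and 1 lower (all genes 24.3% and 25.6%). FCGR2B and FCGR2C in THP-1 and MOLM-13, FCGR2C in untreated U937 and FCER2 in OCI-AML-3 also passed the filter only through SKO or DKO libraries. Since the genes were picked with such results known, nothing is read from these counts, and direction and size are described gene by gene. The median log2 fold change of the tested genes ran from 0.12 in OCI-AML-3 DKO to 1.93 in TPA-treated U937 DKO, while the median over all genes lay between -0.05 and 0.05 in the same comparisons. In these bulk libraries, more cells with a transcript and more transcript per cell cannot be told apart.

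**Figure D2:**
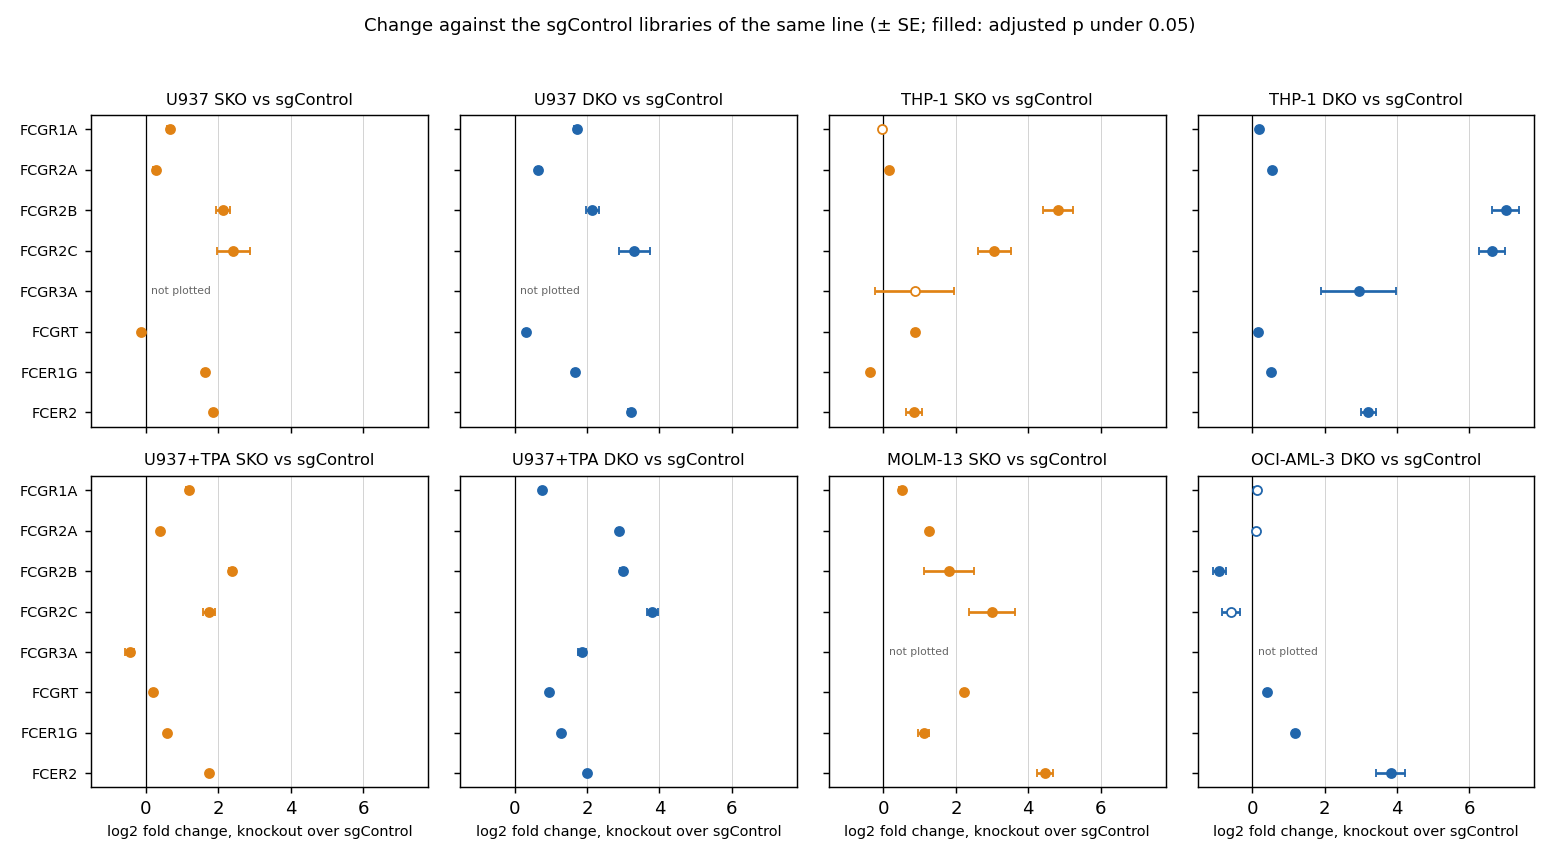
Log2 fold change of each gene against the sgControl libraries of the same line and treatment (x axis) for 8 comparisons, with SE bars; filled points passed an adjusted p of 0.05 and "not plotted" marks FCGR3A where it was not tested. FCER2 lies right of 0 in all 8 panels, and FCGR2B lies left of 0 in OCI-AML-3 alone.

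FCGR1A, the high-affinity IgG receptor CD64, stood higher in THP-1 under every label than in any group of the other lines. In U937 it stood at 10.0, 10.0 and 9.64 CPM in sgControl, 14.7, 15.8 and 16.4 in SKO and 33.5, 34.5 and 29.6 in DKO libraries. The 3 groups did not overlap, and the change was 0.67 ± 0.08 for SKO (adjusted p = 3.6e-08) and 1.71 ± 0.08 for DKO (adjusted p = 2.4e-17). DKO also exceeded SKO by 1.03 ± 0.08 (adjusted p = 3.3e-12); in that comparison 5 of 7 genes were higher, with 24.1% of all genes higher and 24.9% lower. In THP-1 the gene was already at 123, 108 and 111 CPM in sgControl, and 118, 107 and 110.4 in SKO libraries overlapped them (-0.03 ± 0.05, adjusted p = 0.65). THP-1 DKO libraries, at 126, 126 and 128 CPM, were higher by 0.19 ± 0.05 (adjusted p = 0.00082). With all libraries in 1 fit that rise was 0.09 and did not pass (adjusted p = 0.16). MOLM-13 SKO libraries had 44.7 and 41.2 CPM against 30.04 and 30.13 in sgControl, a rise of 0.50 ± 0.06 (adjusted p = 1.7e-08). OCI-AML-3 gave 35.9 and 34.7 CPM in DKO and 32.3 and 31.6 in sgControl, which did not pass (0.12 ± 0.07, adjusted p = 0.2). Across the 13 groups the THP-1 libraries led at group means of 111.9 to 126.5 CPM, and no other group exceeded 47.2. Of 12 neighbouring pairs in that order, 4 overlapped.

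The reference sequence before the RefSeq start of FCGR1A is shown because this promoter is the textbook example of a gamma-activated site, an element of interferon-gamma response. RefSeq promoters on GRCh38.p14 matched 7 of the 8 genes, with 13 starts in all and none for FCGR2C. The 250 bases before each start were searched on both strands for the gamma-activated site TTCNNNGAA, the STAT6-type element (TTC and GAA with 4 free bases between), the interferon-stimulated response element (GAAA and GAAA with 2 free bases between), the PU.1 core GAGGAA and the AP-1 element TGANTCA. Capitals mark a match to any of these, no printed matches overlap, and a match that reads alike on both strands was counted once. FCGR1A lies on the plus strand at chr1:149782671-149791675, and the stretch is chr1:149782444-149782693.
FCGR1A: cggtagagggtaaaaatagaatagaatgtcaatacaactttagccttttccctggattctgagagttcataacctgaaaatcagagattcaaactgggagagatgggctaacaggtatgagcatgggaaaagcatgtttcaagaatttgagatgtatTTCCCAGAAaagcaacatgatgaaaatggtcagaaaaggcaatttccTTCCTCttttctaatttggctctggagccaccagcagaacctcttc
It holds a gamma-activated site 93 to 85 bases before the start and a PU.1 core on the opposite strand at 46 to 41. A gamma-activated site is in 6.57% of 35116 RefSeq promoter stretches of that length, and a PU.1 core in 23.6%. A match describes the letters and not binding.

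Reads of FCGR1A can fit its close copies. Of the 100-base windows in its GENCODE 29 transcripts, 36.5% also occur in transcripts of FCGR1B or FCGR1CP, and at 150 bases 18.8% do. The read length is not given in the sources used here, and per the file headers, reads that map to several places were left out of the counts of untreated U937 and THP-1. FCGR1B, the copy with more shared windows (29.5% at 100 bases, against 14.5% for FCGR1CP), was at 1.74 CPM in U937 sgControl and 5.80 in DKO, and at 24.6 CPM in THP-1 sgControl and 33.7 in DKO. Of the exon bases of FCGR1A, 8.2% also belong to the annotated gene H2BC18.

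FCGR2A, the activating IgG receptor CD32A, was higher in all 4 SKO comparisons and in 3 of 4 DKO comparisons. In untreated U937 it stood at 20.8, 21.4 and 20.3 CPM in sgControl, 22.7, 27.5 and 24.3 in SKO and 30.6, 34.5 and 33.4 in DKO libraries. The rise was 0.27 ± 0.07 in SKO (adjusted p = 0.0024) and 0.65 ± 0.07 in DKO (adjusted p = 4.7e-09). THP-1 went from 73.7, 70.0 and 69.3 CPM in sgControl to 83.8, 77.0 and 78.7 in SKO (0.16 ± 0.05, adjusted p = 0.0037) and 98.4, 102 and 102 in DKO (0.54 ± 0.05, adjusted p = 1.1e-11). The U937 and THP-1 changes did not differ past the threshold, by 0.11 ± 0.08 for SKO (adjusted p = 0.3) and 0.15 ± 0.08 for DKO (adjusted p = 0.12). The DKO difference passed in the fit of all libraries at 0.22 (adjusted p = 0.017) and when any of 7 libraries was left out.

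The FCGR2A changes in MOLM-13 SKO and TPA-treated U937 DKO were above 1 on the log2 scale, while TPA-treated U937 SKO rose by 0.40 ± 0.05 (adjusted p = 4.9e-08). MOLM-13 SKO libraries had 54.4 and 54.3 CPM against 22.6 and 22.3 in sgControl, a rise of 1.26 ± 0.06 (adjusted p = 2.3e-18). TPA-treated U937 DKO libraries reached 241, 254 and 254 CPM, against 44.9, 47.3 and 42.3 in SKO and 34.97, 33.7 and 33.3 in sgControl. That is 2.87 ± 0.04 over sgControl (adjusted p = 1.4e-27) and 2.47 ± 0.04 over SKO (adjusted p = 1.1e-25); in the latter comparison 7 of 8 genes were higher and 1, FCGR1A, was lower by 0.43 (log2 fold change -0.43 ± 0.06), with 31.3% of all genes higher and 32.4% lower. OCI-AML-3 libraries gave 94.6 and 102 CPM in DKO and 91.2 and 87.8 in sgControl (0.11 ± 0.06, adjusted p = 0.12). The next group by mean after TPA-treated DKO, THP-1 DKO, was at 100.6 CPM. The neighbouring gene HSPA6, 527 bases from FCGR2A, also rose in TPA-treated DKO over sgControl (4.07 ± 0.13, adjusted p = 1.5e-20). The median of 61 genes within 5 Mb that passed a cut on average expression was 0.08 there, relative to all genes. The part of the neighbourhood in the result was not tested.

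FCGR2B, the inhibitory receptor CD32B, had low levels in the control libraries and higher ones in SKO or DKO libraries of 3 lines. In U937 it went from 1.25, 2.11 and 1.17 CPM in sgControl to 7.01, 7.06 and 5.71 in SKO (2.13 ± 0.18, adjusted p = 3e-11) and 7.92, 6.01 and 6.36 in DKO (2.14 ± 0.18, adjusted p = 2e-11). SKO and DKO overlapped and did not differ past the threshold (0.01 ± 0.16, adjusted p = 0.96). In THP-1 sgControl it had 7 reads in 3 libraries together, 0.0443 CPM with an exact 95% Poisson interval of 0.0178 to 0.0913. THP-1 SKO libraries had 1.11, 1.48 and 1.40 CPM and DKO libraries 6.18, 5.26 and 6.03. The rise was 4.83 ± 0.41 in SKO (adjusted p = 3.5e-11) and 7.0 ± 0.37 in DKO (adjusted p = 2.5e-16), and DKO exceeded SKO by 2.17 ± 0.23 (adjusted p = 3.3e-09). In that comparison 6 of 8 genes were higher and 1 lower, beside 25.3% and 28.5% of all genes. Without THP-1 sgControl replicate 2, which had no read, the rises were 4.24 and 6.40.

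In MOLM-13 FCGR2B had 10 reads in the 2 sgControl libraries and 30 in the 2 SKO libraries, and its rise of 1.80 ± 0.69 (adjusted p = 0.023) was lost in DESeq2 (1.86, adjusted p = 0.11). It was also lost without sgControl replicate 1 (1.27) and without SKO replicate 1 (1.43) or 2 (2.13), and it was 2.87 without sgControl replicate 2. Each of these fits leaves 1 library in a group, which is assumed to vary like the other group. OCI-AML-3 went the other way: 4.34 and 4.39 CPM in sgControl against 2.17 and 2.54 in DKO, a fall of 0.91 (log2 fold change -0.91 ± 0.18, adjusted p = 3e-05). Under TPA, FCGR2B stood at 6.69, 5.73 and 6.57 CPM in sgControl, 34.8, 31.2 and 32.2 in SKO and 49.2, 54.2 and 49.9 in DKO libraries. The rise was 2.37 ± 0.08 in SKO (adjusted p = 1.5e-19) and 3.00 ± 0.08 in DKO (adjusted p = 1.4e-22), and these were the 2 groups with the highest levels of the gene.

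RefSeq gives FCGR2B starts at 2 places. The 250 bases before the downstream start, at chr1:161662893-161663142 on the plus strand, are shown because they hold the most motif letters of the 13 stretches; the counted gene spans chr1:161663147-161678654 and does not reach the upstream start.
FCGR2B: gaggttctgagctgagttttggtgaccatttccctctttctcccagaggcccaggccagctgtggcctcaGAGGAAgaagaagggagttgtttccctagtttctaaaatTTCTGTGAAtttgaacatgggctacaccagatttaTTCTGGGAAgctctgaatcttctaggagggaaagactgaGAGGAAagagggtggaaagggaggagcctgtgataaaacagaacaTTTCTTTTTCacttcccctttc
The capitals are a PU.1 core 180 to 175 bases before the start, a pair of gamma-activated sites, the upstream one at 141 to 133, another PU.1 core at 67 to 62 and an interferon-stimulated response element on the opposite strand at 22 to 13. The last of these is in 3.02% of all stretches searched.

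The balance of activating FCGR2A over inhibitory FCGR2B transcript was followed as a ratio of CPM per kilobase of annotated exon, which moves between groups in the same way as the ratio of CPM. In U937 it was 18.1 ± 4.93 (SD, n = 3) in sgControl, 4.66 ± 0.639 in SKO and 6.08 ± 1.19 in DKO. Under TPA it was 6.61 ± 0.525 in sgControl, 1.68 ± 0.154 in SKO and 6.01 ± 0.245 in DKO. The sgControl ratio thus did not overlap with SKO in either setting, whereas under TPA the DKO libraries (5.76 to 6.25) met the sgControl range (6.22 to 7.21). In THP-1 it was 75.1 ± 15.1 in SKO and 21.3 ± 2.22 in DKO, with too few FCGR2B reads in sgControl for a ratio. OCI-AML-3 had 25.1 ± 0.919 in sgControl and 51.4 ± 2.83 in DKO (n = 2 each), the reverse direction. No test was run on these ratios.

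**Figure D3:**
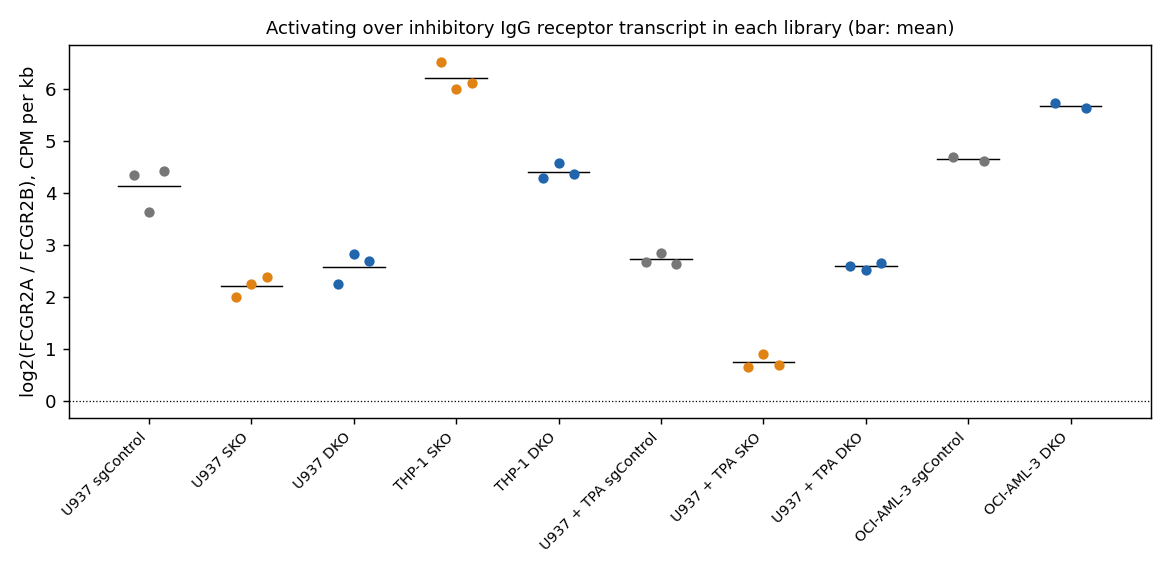
Log2 ratio of FCGR2A to FCGR2B, each in CPM per kilobase, in every library of 10 groups, with bars for group means; MOLM-13 and THP-1 sgControl are left out for their few FCGR2B reads. U937 SKO libraries under TPA lie lowest, at ratios of 1.58 to 1.86, and OCI-AML-3 DKO libraries lie above their sgControl.

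FCGR2C, an activating receptor gene whose reading frame is open in only some people, had few reads in the control libraries of U937, THP-1 and MOLM-13. In U937 it had 20 reads in the 3 sgControl libraries (0.120, 0.0712 and 0.341 CPM), and 0.945, 0.825 and 0.991 CPM in SKO and 2.02, 1.27 and 1.90 in DKO libraries. The rise was 2.42 ± 0.45 in SKO (adjusted p = 2.9e-05) and 3.30 ± 0.43 in DKO (adjusted p = 8.5e-08), and without sgControl replicate 3 it was 3.24 and 4.12. The DKO excess over SKO, 0.88 ± 0.35 (adjusted p = 0.035), was lost without any of 5 libraries, at values of 0.76 to 0.94. THP-1 DKO libraries had 7.70, 5.74 and 7.31 CPM, against 0.793, 0.475 and 0.558 in SKO and 11 reads in sgControl, for rises of 6.62 ± 0.37 (adjusted p = 7.1e-16) and 3.06 ± 0.45 (adjusted p = 1.2e-06). Without THP-1 sgControl replicate 3 these were 7.87 and 4.33. In MOLM-13 SKO the rise was 2.99 ± 0.63 (adjusted p = 0.00013) from 9 sgControl reads, and without SKO replicate 1, with 1 library left in that group, it was 2.14 and did not pass (adjusted p = 0.061). TPA-treated U937 rose from 1.27, 1.31 and 1.503 CPM to 4.57, 5.80 and 3.49 in SKO (1.75 ± 0.17, adjusted p = 9.1e-10) and 19.02, 19.6 and 18.8 in DKO (3.80 ± 0.15, adjusted p = 2.1e-18). OCI-AML-3 DKO was at 1.40 and 1.27 CPM against 1.90 and 2.02 (log2 fold change -0.58 ± 0.25, adjusted p = 0.052), and this passed with DESeq2 size factors (adjusted p = 0.049).

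The FCGR2 copies are near-identical in places, so their counts are uncertain. FCGR2C shares 22.3% of its 100-base transcript windows with FCGR2A or FCGR2B, while FCGR2A shares 5.38% and FCGR2B 9.85% with the other two. Of the exon bases, 3.7% in FCGR2A, 7.3% in FCGR2B and 7.9% in FCGR2C also belong to another annotated gene of the count table. The next gene 629 bases downstream of FCGR2C on the same strand, the heat shock pseudogene HSPA7, had the pattern most like FCGR2C (Pearson r = 0.991 over 13 group means of log2(CPM + 1), among 13465 genes). HSPA7 stood at 0.304 ± 0.144 CPM in U937 sgControl and 2.46 ± 0.279 in DKO, at 0.0393 ± 0.0409 in THP-1 sgControl and 6.99 ± 0.446 in DKO, and at 20.4 ± 1.76 in TPA-treated U937 DKO (n = 3 each). Its paralogue HSPA6, whose transcripts hold 34.4% of the 100-base windows of HSPA7, stood at 3.84 ± 0.298 CPM in U937 sgControl, 3.04 ± 0.605 in DKO and 36.2 ± 0.545 in TPA-treated DKO. Whether FCGR2C and HSPA7 reads come from separate transcripts was not tested.

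FCGR3A, the receptor CD16A of natural killer cells and some monocytes, had 0 to 23 reads a library without TPA. In untreated U937 it had 0 reads in sgControl, which allows up to 0.0252 CPM (3 reads in the group as a whole), 6 in SKO, all in replicate 1, and 2 in DKO. MOLM-13 had no read in 4 libraries, and OCI-AML-3 had 2 reads in DKO and none in sgControl. In THP-1 it had 8 reads in sgControl and 16 in SKO, and DKO libraries stood at 0.532, 0.170 and 0.460 CPM. The THP-1 DKO rise of 2.94 ± 1.03 (adjusted p = 0.014) was lost in DESeq2 (3.02, adjusted p = 0.12) and without any of 4 libraries, and it ranged from 2.35 to 7.28 over the libraries left out.

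Under TPA all 9 U937 libraries held FCGR3A. Levels were 6.64, 5.38 and 5.77 CPM in sgControl, 4.62, 3.49 and 4.89 in SKO and 21.2, 21.4 and 23.03 in DKO. TPA-treated sgControl was at least 235-fold higher than untreated sgControl, taken at 3 reads in the group as a whole. In DKO the ratio of TPA-treated to untreated libraries was 1160, with an exact 95% counting interval of 321 to 9600. Among TPA-treated libraries DKO exceeded sgControl by 1.87 ± 0.11 (adjusted p = 1.3e-14), and SKO was below it by 0.45 (log2 fold change -0.45 ± 0.12, adjusted p = 0.0036). The SKO fall did not pass with all libraries in 1 fit (-0.46, adjusted p = 0.19). These intervals and floors cover counting error only. The neutrophil copy FCGR3B, which shares 11.2% of the 100-base windows of FCGR3A, stood at 0.490 CPM in TPA-treated DKO and at or near 0 elsewhere. Of 6 natural killer cell markers, 3 or 4 reached 1 CPM in TPA-treated U937, and 2 or 3 did so without TPA, where NKG7 was at 160 CPM in sgControl; their part in the result was not tested.

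FCER1G, the shared adaptor chain of activating receptors, had the highest mean of the 8 per kilobase in 11 of 13 groups. Its lead over FCGRT in U937 sgControl was within the spread, at 28.49 ± 2.209 against 28.25 ± 1.988 CPM per kilobase. In U937 FCER1G went from 29.9, 26.6 and 25.9 CPM in sgControl to 86.7, 81.9 and 85.0 in SKO (1.63 ± 0.05, adjusted p = 6.9e-21) and 85.9, 89.8 and 88.5 in DKO (1.67 ± 0.05, adjusted p = 2.7e-21). SKO and DKO overlapped. In THP-1 the labels differed in direction. SKO libraries, at 91.7, 85.7 and 94.03 CPM, fell by 0.38 (log2 fold change -0.38 ± 0.05, adjusted p = 9e-08) from 116, 112 and 125 in sgControl. THP-1 DKO libraries, at 169.6, 161 and 164 CPM, rose by 0.53 ± 0.05 (adjusted p = 4.5e-11). OCI-AML-3 DKO libraries had 200.3 and 194 CPM against 87.5 and 83.2, a rise of 1.18 ± 0.06 (adjusted p = 1.1e-23).

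MOLM-13 stood apart for FCER1G, with 2.86 and 2.97 CPM in sgControl and 7.04 and 5.72 in SKO (1.11 ± 0.16, adjusted p = 6.2e-07). Its FCGR1A level, 30.1 ± 0.0612 CPM, was within the range of the other lines. TPA-treated U937 had the highest levels, at 262, 255 and 244 CPM in sgControl, 367, 388 and 389 in SKO (0.59 ± 0.04, adjusted p = 2.9e-13) and 590.3, 643 and 646 in DKO (1.29 ± 0.04, adjusted p = 2.5e-21). The gene lies on the plus strand at chr1:161215234-161220699. The related adaptor gene TYROBP stood in U937 at 4.05 CPM with the control guide, 27.7 as SKO and 18.4 as DKO, and in OCI-AML-3 at 13.6 CPM in sgControl and 43.9 in DKO.

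Among 14 genes for other receptors that signal through FCER1G, 7 of 8 tested were higher and none lower in U937 SKO, and likewise 7 of 8 in DKO, with medians of 1.63 and 2.17 against 0.00 and -0.01 over all genes. LILRA6, an immunoglobulin-like receptor, rose from 0.0988 CPM to 2.65 and 5.37 CPM in these groups. In THP-1 SKO 3 of 8 were higher and 1 lower, and in DKO 7 of 8 were higher and none lower. In TPA-treated U937, 7 of 11 were higher and 2 lower in SKO, and 8 of 11 were higher and 2 lower in DKO, with the osteoclast-associated receptor gene OSCAR at 27.8 CPM in SKO and 88.3 in DKO. In MOLM-13 SKO 5 of 7 were higher and 1 lower, OSCAR among the higher at 13.6 against 1.69 CPM, and in OCI-AML-3 DKO 5 of 6 were higher and 1 lower, with FCAR at 12.2 against 5.18. The shares of all genes were 20.6% to 34.1% higher and 22.8% to 36.5% lower across these 8 comparisons.

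FCGRT, the neonatal Fc receptor heavy chain, was present at 44.5 CPM or more in every library and was higher in 7 of the 8 comparisons of SKO or DKO with sgControl and lower in 1. In U937 SKO it was at 105, 107 and 99.8 CPM against 124, 108 and 112 in sgControl, a fall of 0.13 (log2 fold change -0.13 ± 0.05, adjusted p = 0.017). That fall did not pass without sgControl replicate 1 (-0.07), without SKO replicate 3 (-0.10) or with all libraries in 1 fit (-0.12). U937 DKO libraries, at 140.4, 143 and 145 CPM, were higher by 0.31 ± 0.04 (adjusted p = 4.9e-07). In THP-1 the order was different: 220.0, 197 and 185 CPM in sgControl, 377, 356 and 365 in SKO and 225, 214 and 215 in DKO. SKO exceeded sgControl by 0.86 ± 0.05 (adjusted p = 4.2e-16), and DKO lay 0.70 below SKO (log2 fold change -0.70 ± 0.05, adjusted p = 7e-14). The DKO rise over sgControl, 0.16 ± 0.05 (adjusted p = 0.0029), overlapped it and did not pass without sgControl replicate 3 (0.09) or with all libraries in 1 fit (0.06).

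The largest FCGRT change was in MOLM-13, from 44.5 and 52.3 CPM to 231 and 227 in SKO (2.22 ± 0.04, adjusted p = 8.3e-28). OCI-AML-3 went from 91.3 and 91.8 to 117 and 131 CPM in DKO (0.41 ± 0.06, adjusted p = 6.5e-08). TPA-treated U937 stood at 176, 176 and 175 CPM in sgControl, 203, 204 and 195 in SKO (0.19 ± 0.04, adjusted p = 7.3e-05) and 322, 348 and 356 in DKO (0.95 ± 0.04, adjusted p = 1.1e-18). In the last comparison the median of the 158 genes within 5 Mb of FCGRT that passed a cut on average expression, relative to all genes, was 0.42. It was -0.09 to 0.11 in the untreated comparisons with sgControl. The part of the neighbourhood in the result was not tested. B2M, which encodes the light chain FCGRT needs, stood at 1340 CPM in THP-1 sgControl, 772 in SKO and 643 in DKO, against the direction of FCGRT. In TPA-treated U937 B2M was at 1660, 1630 and 4470 CPM in the same order.

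FCER2, the IgE receptor CD23, was higher in SKO or DKO libraries of all 4 lines. In U937 it stood at 14.01, 12.8 and 13.1 CPM in sgControl, 49.1, 50.3 and 43.3 in SKO (1.86 ± 0.06, adjusted p = 1e-20) and 122, 126 and 121 in DKO (3.20 ± 0.06, adjusted p = 1e-26). DKO exceeded SKO by 1.35 ± 0.05 (adjusted p = 2.6e-18). In THP-1 it stood at 1.42, 0.741 and 1.63 CPM in sgControl, 2.77, 2.17 and 1.85 in SKO (0.84 ± 0.21, adjusted p = 0.0014) and 11.5, 11.7 and 10.9 in DKO (3.21 ± 0.20, adjusted p = 7.4e-15). MOLM-13 rose from 0.652 and 0.321 CPM to 9.98 and 11.2 in SKO (4.47 ± 0.22, adjusted p = 7.8e-18). OCI-AML-3 rose from 14 reads in 2 sgControl libraries, 0.126 and 0.168 CPM, to 2.00 and 2.32 CPM in DKO (3.82 ± 0.39, adjusted p = 7.4e-12). In none of these comparisons did the groups overlap.

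TPA-treated U937 libraries held 103.9, 103 and 103 CPM of FCER2 in sgControl, 345, 354 and 344 in SKO (1.75 ± 0.04, adjusted p = 2.8e-23) and 383, 424 and 435 in DKO (1.99 ± 0.04, adjusted p = 4.2e-25). Over the 4 SKO comparisons, which each have their own sgControl libraries, FCGR2A, FCGR2B, FCGR2C and FCER2 were higher in all 4; of 13024 genes tested in all 4, 2.86% were. Over the 4 DKO comparisons FCGRT, FCER1G and FCER2 were higher in all 4, as were 4.5% of 13234 genes. FCER2 was the one gene of the 8 in both sets. In MOLM-13, FCGR2B and FCGR2C had 10 and 9 sgControl reads and passed the low-count filter only through the SKO libraries. FCER2 in OCI-AML-3, with 14 sgControl reads, passed it only through the DKO libraries. The place of these genes in the sets thus rests partly on libraries where they are high. The MOLM-13 rise of FCGR2B was also lost in DESeq2 (adjusted p = 0.11). SKO and DKO of a line share their sgControl libraries, so the sets are not separate evidence. FCER2 also had the widest span of the genes with reads in every group, from 0.147 ± 0.0295 CPM in OCI-AML-3 sgControl to 414 ± 27.2 in TPA-treated U937 DKO, with 2 of 12 neighbouring pairs overlapping.

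FCER2 lies on the minus strand at chr19:7688758-7702146. Among genes within 5 Mb that passed the same cut on average expression, the median log2 fold change relative to all genes was 0.38 in U937 SKO and 0.52 in DKO (143 genes), and 0.42 and 0.54 under TPA. It was -0.04 in THP-1 SKO and -0.25 in DKO, 0.05 in MOLM-13 SKO and 0.00 in OCI-AML-3 DKO, where FCER2 was also higher. In U937 the part of the neighbourhood in the result was not tested. TRAPPC5, 1055 bases away, rose by 1.15 in U937 SKO (adjusted p = 2.7e-05) and was at 0.24 in DKO (adjusted p = 0.35). In THP-1 TRAPPC5 rose by 0.85 in SKO (adjusted p = 0.025) and by 1.27 in DKO (adjusted p = 0.00066). CD209, another lectin 37847 bases away, rose by 5.11 in U937 DKO (adjusted p = 6.7e-08) and fell by 1.46 in THP-1 DKO (log2 fold change -1.46, adjusted p = 1e-10).

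FCER2 has alternative starts, long known as those of CD23a and CD23b, which gene counts do not separate. The stretch before the start nearer to the gene's end, chr19:7699442-7699691 on the minus strand, is shown because it holds 3 kinds of the motifs searched.
FCER2: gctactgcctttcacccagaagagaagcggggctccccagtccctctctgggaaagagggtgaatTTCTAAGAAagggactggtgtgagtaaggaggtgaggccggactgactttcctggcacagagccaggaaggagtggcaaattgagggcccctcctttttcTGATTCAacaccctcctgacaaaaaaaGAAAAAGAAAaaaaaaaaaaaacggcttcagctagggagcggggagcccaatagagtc
In order they are a gamma-activated site 185 to 177 bases before the start, an AP-1 element at 85 to 79 and an interferon-stimulated response element at 58 to 49. The stretch before the other start, chr19:7702132-7702381, holds an AP-1 element at 249 to 243 and no other match. The AP-1 element is in 6.57% of all stretches searched. None of the 13 stretches held the STAT6-type element, which is in 5.38% of all, and the stretches of FCER1G and FCGRT held none of the 5 motifs in these letters.

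Of the partners of FCER2, ADAM10, the protease that sheds CD23 from the cell surface, stood at 205 CPM in U937 sgControl, 357 in SKO and 372 in DKO, and at 399, 603 and 682 CPM in the same order under TPA. IL4R, a chain of the receptor for the CD23-inducing cytokine interleukin 4, was at 67.7, 113 and 143 CPM in untreated U937 and at 47.6, 33.3 and 30.3 CPM in THP-1. CR2, a ligand of CD23 and a B cell marker, had no read in untreated U937. Among all 10 partners of the receptors, those higher were 7 of 9 tested in U937 SKO and 7 of 9 in DKO, 2 and 4 of 9 in THP-1 SKO and DKO, 6 and 8 of 8 in TPA-treated SKO and DKO, and 8 of 8 in both MOLM-13 SKO and OCI-AML-3 DKO. Those lower were 6 of 9 in THP-1 SKO, 4 of 9 in THP-1 DKO, 1 in U937 DKO, 1 in TPA-treated SKO and none in the other 4 comparisons. For comparison, 20.6% to 34.1% of all genes were higher and 22.8% to 36.5% lower in these 8 comparisons. Of the B cell markers, CD79A stood at 6.44 CPM in U937 sgControl and 2.01 in DKO.

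TPA-treated U937 libraries had more of all 8 transcripts than untreated ones under each label, where all genes were higher in 34.6% and lower in 33.2% for sgControl, 31.5% and 31.4% for SKO and 36.9% and 36.2% for DKO. FCGR3A passed the filter in this fit only through the TPA-treated groups. In sgControl, FCER1G rose by 3.23 ± 0.05 (adjusted p = 1.2e-35), FCGR2C by 3.01 ± 0.34 (adjusted p = 8.7e-10) and FCER2 by 2.98 ± 0.05 (adjusted p = 7.4e-33). Without untreated sgControl replicate 3 the FCGR2C rise was 3.81. FCGR2B rose by 2.07 ± 0.15, FCGR1A by 1.09 ± 0.07, FCGR2A by 0.73 ± 0.06 and FCGRT by 0.64 ± 0.04. In DKO libraries FCGR1A was at 33.9, 34.8 and 36.9 CPM with TPA and 33.5, 34.5 and 29.6 without (0.15 ± 0.07, adjusted p = 0.04). That call was lost with the replicate number as a block (adjusted p = 0.062), with no filter on low counts (0.10), with only the compared groups (adjusted p = 0.053), with all libraries in 1 fit (0.11), and without any of 5 libraries, at 0.08 to 0.16. FCGR2A rose by 2.96 ± 0.06 in DKO (adjusted p = 1.3e-32) and by 0.87 ± 0.06 in SKO (adjusted p = 2.1e-15). Mast cell and basophil markers summed to 46.2 CPM or more in untreated and 419 or more in TPA-treated sgControl, nearly all TPSAB1, while the alpha chain FCER1A had no read in U937 with or without TPA and the beta chain MS4A2 was at 0.347 and 0 CPM; their part in the result was not tested.

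**Figure D4:**
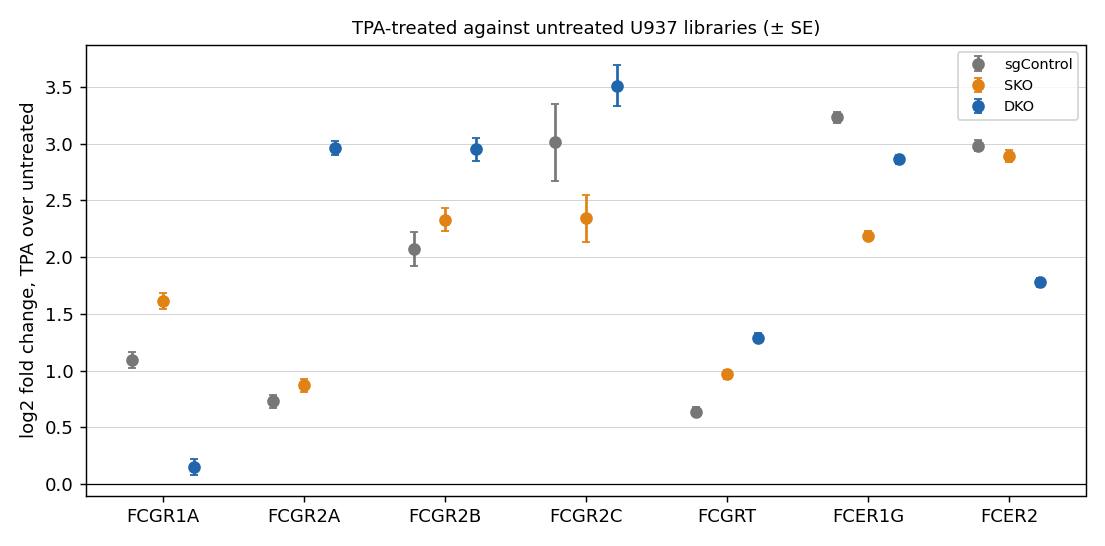
Log2 fold change of 7 genes between TPA-treated and untreated U937 libraries (y axis), by label, with SE bars; FCGR3A is left out because its untreated groups have 0 to 6 reads. FCGR2A in DKO stands far above its sgControl and SKO values, and FCER2 in DKO below them.

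The effect of the label with and without TPA was compared by interaction. For SKO, 2 of 8 genes had a more positive and 2 a more negative change under TPA, beside 19.6% and 18.1% of all genes. The SKO change of FCER1G was smaller under TPA by 1.03 (log2 difference -1.03 ± 0.06, adjusted p = 9.4e-16), and that of FCGR1A larger by 0.52 ± 0.10 (adjusted p = 5.9e-05). FCER1G was higher in SKO than in sgControl in both settings. Its means were 84.5 and 27.5 CPM without TPA and 381 and 254 with it, a wider gap in CPM. FCGR3A is among the negative ones, but untreated sgControl had no read of it, so no finite fold stands behind its value. For DKO, 3 of 8 were more positive and 3 more negative, beside 21.7% and 27.8% of all genes. FCGR2A led with 2.23 ± 0.08 (adjusted p = 1.3e-22), followed by FCGR2B with 0.88 ± 0.20 (adjusted p = 0.00026) and FCGRT with 0.66 ± 0.06 (adjusted p = 1.2e-11). On the other side FCER2 changed by -1.19 ± 0.07 (adjusted p = 9.8e-17), FCGR1A by -0.94 ± 0.10 (adjusted p = 3.8e-10) and FCER1G by -0.36 ± 0.06 (adjusted p = 9.2e-06). On the log2 scale FCER2 thus differed more between DKO and sgControl without TPA than with it. Its level with TPA was higher under each label. Its sgControl and DKO means were 13.3 and 123 CPM without TPA and 103 and 414 with it, a wider gap in CPM.

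The label's effect was compared between U937 and THP-1, whose media differ in BME and whose DKO cells carry differently numbered SUV39H2 guides, so line, medium and guide cannot be told apart. For SKO, 3 of 7 genes had a more positive log2 change in U937 and 2 a less positive one, beside 24.1% and 22.7% of all genes. FCER1G differed by 2.03 ± 0.07 (adjusted p = 1.6e-22), having risen in U937 and fallen in THP-1, FCER2 by 1.03 ± 0.20 (adjusted p = 4.6e-05) and FCGR1A by 0.71 ± 0.09 (adjusted p = 2.6e-08). FCGR2B differed by -2.68 ± 0.54 (adjusted p = 7.3e-05) and FCGRT by -0.98 ± 0.07 (adjusted p = 3.1e-14). The sgControl mean of FCGR2B was 1.51 CPM in U937 and 0.0446 in THP-1, the latter from 7 reads. Its SKO means were 6.59 and 1.33 CPM and its DKO means 6.76 and 5.82, in the same order. For DKO, 3 of 7 were more positive in U937 and 2 less, beside 29.7% and 24.7% of all genes. FCGR1A differed by 1.56 ± 0.09 (adjusted p = 2.1e-17), FCER1G by 1.19 ± 0.07 (adjusted p = 4.1e-16), FCGR2B by -4.80 ± 0.48 (adjusted p = 8.6e-11) and FCGR2C by -3.25 ± 0.71 (adjusted p = 0.00019). FCGR2C had 20 reads in U937 sgControl and 11 in THP-1 sgControl. Without THP-1 sgControl replicate 2 the FCGR2B difference was -4.18, and that of FCGR2C was -2.54 without U937 sgControl replicate 3 and -4.47 without THP-1 sgControl replicate 3. The DKO rise of FCER2 did not differ past the threshold, at 0.03 ± 0.19 (adjusted p = 0.95), from sgControl levels of 13.3 CPM in U937 and 1.26 in THP-1.

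Of 33 signalling genes downstream of the receptors (22 activating, 11 inhibitory), 29 were higher and 3 lower in U937 SKO (median 0.34 against 0.00 over all genes), and 27 were higher and 2 lower in DKO (0.55 against -0.01). Over all genes 30.7% were higher and 31.2% lower in the first comparison, and 33.2% and 34.5% in the second. The adaptor gene BLNK rose from 1.67 CPM to 13.6 in SKO (3.03 ± 0.13, adjusted p = 7e-18), as did the inhibitory ubiquitin ligase gene CBLB from 7.58 to 16.5 (1.14 ± 0.10, adjusted p = 7e-11). INPP5D, the phosphatase used by FCGR2B, was at 233, 343 and 355 CPM in sgControl, SKO and DKO. In THP-1, 12 of 33 were higher and 13 lower in SKO (all genes 20.6% and 22.8%), and 17 higher and 14 lower in DKO (31.9% and 33.7%); BLNK fell there by 2.38 in SKO (log2 fold change -2.38 ± 0.28) and the kinase gene FYN rose by 2.13 ± 0.07. Under TPA, 23 of 33 were higher and 3 lower in SKO (all genes 25.8% and 24.6%), and 26 higher and 6 lower in DKO (34.1% and 36.5%), with the kinase gene SRC at 13.2 CPM in sgControl and 139 in DKO. MOLM-13 SKO had 19 of 33 higher and 8 lower (all genes 31.8% and 32.2%), and OCI-AML-3 DKO 13 of 32 higher and 8 lower (24.3% and 25.6%).

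Of 12 uptake and oxidase genes, 10 were higher and 1 lower in U937 SKO, and 10 higher and 2 lower in DKO. Among all genes, the share higher was 30.7% and 33.2% there and 20.6% to 34.1% over the 8 comparisons with sgControl, and the share lower was 22.8% to 36.5%. NCF1 and CYBB, subunits of the phagocyte oxidase, went from 1.61 to 20.5 CPM and from 3.25 to 21.7 CPM in SKO. CYBB was also higher in MOLM-13 SKO (90.2 against 9.65 CPM) and THP-1 DKO (69.2 against 18.5). In TPA-treated U937, 4 of 12 were higher and 6 lower in SKO, and 6 higher and 5 lower in DKO, with CYBB at 11.2, 261 and 122 CPM in sgControl, SKO and DKO. THP-1 SKO had 3 higher and 3 lower, THP-1 DKO 8 and 4, and MOLM-13 SKO and OCI-AML-3 DKO 7 and 2 each.

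Of 17 other Fc-binding receptors on the list, 3 of 7 tested were higher in U937 SKO, 6 of 7 in DKO, 2 of 10 in THP-1 SKO (2 lower), 5 of 10 in THP-1 DKO (1 lower), 5 of 10 in TPA-treated SKO, 10 of 10 in TPA-treated DKO, 7 of 9 in MOLM-13 SKO (1 lower) and 2 of 6 in OCI-AML-3 DKO. None was lower where no number is given. In these 8 comparisons 20.6% to 34.1% of all genes were higher, so the counts in THP-1 SKO (all genes 20.6%) and OCI-AML-3 DKO (24.3%) lay near the background. FCAR, the IgA receptor, stood at 12.6 CPM in U937 sgControl, 22.4 in SKO and 25.7 in DKO, and at 76.5, 115 and 176 CPM in the same order under TPA. FCMR, the IgM receptor, stood at 3.34 CPM in sgControl and 6.62 in DKO without TPA and at 81.5 and 224 CPM with it. FCRLA, an intracellular relative in the same cluster on chromosome 1, was at 2.67 CPM in TPA-treated sgControl and 23.6 in DKO, and TRIM21, the cytosolic Fc receptor, at 42.3 and 155 CPM.

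The summed level of the 8 genes, in CPM per kilobase, ran from 33.3 ± 1.37 in MOLM-13 sgControl (n = 2) to 987 ± 50.1 in TPA-treated U937 DKO (n = 3). In U937 it was 70.9 ± 4.37, 146 ± 2.28 and 199 ± 3.51 in sgControl, SKO and DKO. In THP-1 the order was 238 ± 8.88, 252 ± 9.15 and 310.0 ± 6.06. FCER1G made up 37.2% to 75.4% of that sum in the 11 groups it led by mean, FCGR1A led in MOLM-13 sgControl with 42.0% and FCGRT in MOLM-13 SKO with 57.8%. In U937 sgControl the FCER1G share, 40.2%, overlapped that of FCGRT, 39.9%. FCER2 took 7.65% in U937 sgControl and 25.2% in DKO. Division by length decides this ranking, since the exon lengths run from 964 bases for FCER1G to 6651 for FCGR2B, where retained introns are included; by raw counts the same gene led in 5 of 13 groups.

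**Figure D5:**
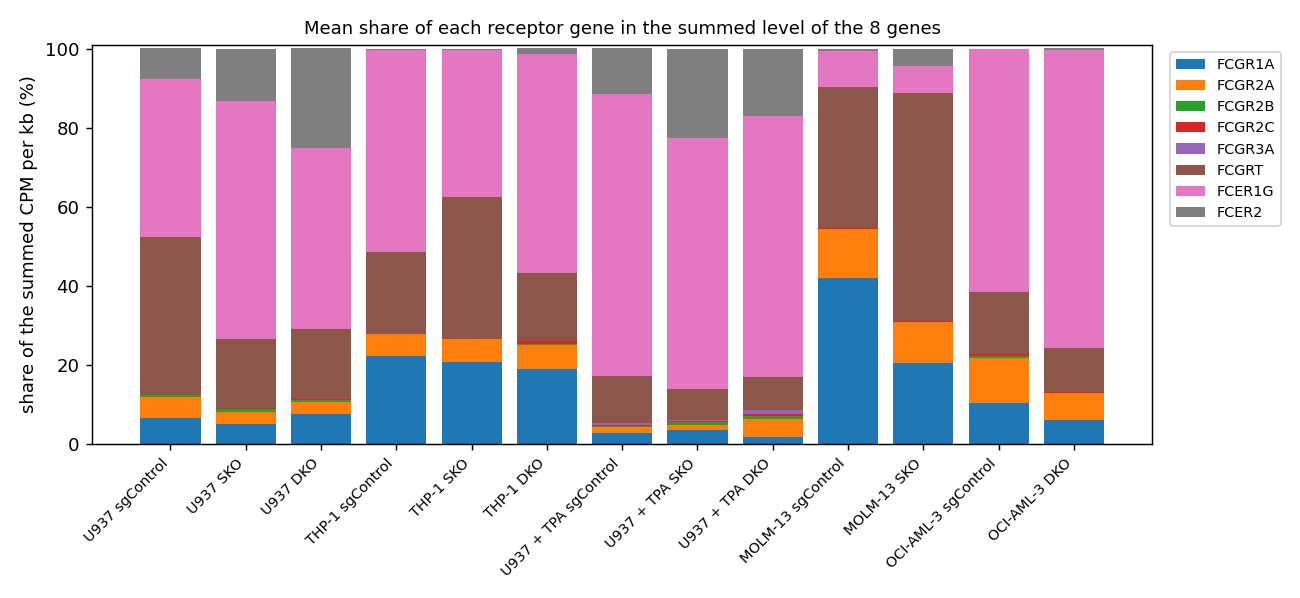
Mean share of each gene in the summed CPM per kilobase of the 8 genes (y axis, %), for the 13 groups. FCER1G holds the largest mean share in the 11 groups outside MOLM-13, from 37.2% in THP-1 SKO to 75.4% in OCI-AML-3 DKO. FCGRT is nearly equal to it in U937 sgControl. The FCER2 part grows from U937 sgControl to DKO.

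The genes most like each receptor over the 13 group means, by Pearson r of log2(CPM + 1) among 13465 genes at a mean of 1 CPM or more, are given as a description, since groups of a line share cells and depth. They were HIPK3 for FCGR1A (0.962), with FCGR1B among its first 3 (0.939), IRF1-AS1 for FCGR2A (0.924) and AKAP13 for FCGR2B (0.953). For FCGR3A it was RGS13 (0.996), for FCGRT MARK4 (0.865), for FCER1G ARHGAP30 (0.952) and for FCER2 the lectin gene CLEC12B (0.977). Between the receptors themselves, r ran from -0.27 for FCGR1A with FCER2 to 0.86 for FCGR2B with FCGR2C. FCGR2B with FCER2 gave 0.82 and FCGR2A with FCER2 0.01. FCGR3A values rest on the TPA-treated groups, since it is near 0 in the other 10.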

How the data were processed

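Whole-number read counts per gene were deposited in 2 tables covering 35 libraries, with 59428 gene rows in common. The labels' protocols describe directional libraries of poly(A) RNA. The tools fastp 0.23.4, STAR 2.7.11b and Subread 2.0.6 and the build hg38 are named in the submitters' processing notes. Per the file headers of the table of untreated U937 and THP-1, the authors counted with featureCounts 2.0.6 on GENCODE 38 with no strand option and no multi-mapping reads; for the other table these settings are not given in the sources used here. Without strand, reads of overlapping antisense genes cannot be told apart.

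Counts were tested with edgeR 4.0.16 in R 4.3.3 (low-count filter, TMM, quasi-likelihood test, Benjamini-Hochberg over all genes), in 1 fit per line and treatment, with joint fits for differences of effects; 18 comparisons were made. The script was tested on simulated counts. The 8 genes and the lists (signalling, uptake and oxidase, other Fc-binding receptors, partners, receptors that use FCER1G, and markers of other cell types) were chosen with earlier results of these data known. Named are all 8 genes, from each list up to 2 genes that passed and changed most, nearest neighbours, the 3 genes with the most similar pattern and the targeted genes; other list genes, markers and HSPA6 were named after their values were seen. Alternatives were DESeq2 1.42.0 and its size factors, no filter, only the compared groups, all libraries in 1 fit, the replicate block and leaving out each library. Windows of transcripts were compared as letters, and promoters were searched on RefSeq sequences. Protein sequences were not used here. Some genes that the naming rule selects are not reported here.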

Additional observations from a re-analysis of the deposited data

Results flagged for a closer look

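These 20 results passed a test of a difference between effects, each a log2 difference with its SE and an adjusted p from edgeR's quasi-likelihood test over all genes. For the SKO effect with TPA minus without it in U937, FCGR1A gave 0.52 ± 0.10 (adjusted p = 5.9e-05), FCGRT 0.33 ± 0.06 (adjusted p = 2.5e-05) and FCER1G -1.03 ± 0.06 (adjusted p = 9.4e-16). FCGR3A gave -4.54 ± 1.65 (adjusted p = 0.028), which rests on 6 untreated reads of 1 SKO library. Untreated sgControl had no read, so its response to TPA has no finite fold, the size of the value cannot be interpreted, and the gene passed the filter through the TPA-treated groups. Without that SKO library the value was -0.43, and the call was also lost without any 1 of the 3 untreated sgControl libraries and with all libraries in 1 fit (-4.73, adjusted p = 0.096).

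For the DKO effect the values were -0.94 ± 0.10 for FCGR1A (adjusted p = 3.8e-10), 2.23 ± 0.08 for FCGR2A (adjusted p = 1.3e-22) and 0.88 ± 0.20 for FCGR2B (adjusted p = 0.00026). They were 0.66 ± 0.06 for FCGRT (adjusted p = 1.2e-11), -0.36 ± 0.06 for FCER1G (adjusted p = 9.2e-06) and -1.19 ± 0.07 for FCER2 (adjusted p = 9.8e-17).

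For the SKO effect in U937 minus that in THP-1, the values were 0.71 ± 0.09 for FCGR1A (adjusted p = 2.6e-08), -2.68 ± 0.54 for FCGR2B (adjusted p = 7.3e-05) and -0.98 ± 0.07 for FCGRT (adjusted p = 3.1e-14). FCER1G gave 2.03 ± 0.07 (adjusted p = 1.6e-22) and FCER2 1.03 ± 0.20 (adjusted p = 4.6e-05). For the DKO effect, FCGR1A gave 1.56 ± 0.09 (adjusted p = 2.1e-17), FCGR2B -4.80 ± 0.48 (adjusted p = 8.6e-11), FCGR2C -3.25 ± 0.71 (adjusted p = 0.00019) and FCER1G 1.19 ± 0.07 (adjusted p = 4.1e-16). FCGRT gave 0.20 ± 0.07 (adjusted p = 0.018), and that call was lost without any of 6 U937 libraries, at 0.08 to 0.12.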

How the results depend on the processing

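Of the 137 log2 fold changes of the 8 genes, 136 kept direction and side of the threshold with DESeq2 size factors, 135 with the DESeq2 test, 136 with no filter on low counts and 129 with all libraries in 1 fit; every count of the 8 genes and of signalling genes passing the test stayed within 1.5 times under each alternative run. Leaving out 1 library moved 31 values from passing to not passing and 10 the other way, fits with 1 library left in a group included. It reversed the direction of 17 values, in 8 results that had not passed. Their ranges were -0.12 to 0.09 for FCGR2B between U937 DKO and SKO, -0.08 to 0.02 for FCGR1A in THP-1 SKO, -0.06 to 0.40 for the FCGR2B SKO effect with minus without TPA, and -0.30 to 0.89 for FCGR2C and -1.33 to 1.89 for FCGR3A for the DKO effect with minus without TPA. Between U937 and THP-1 they were -0.04 to 0.18 for FCGR2A and -1.88 to 0.12 for FCGR2C in SKO and -0.13 to 0.36 for FCER2 in DKO. Counts not divided by length left the leading gene unchanged in 5 of 13 groups. Over all genes of the OCI-AML-3 DKO comparison, 8065 passed, and 5236 and 5020 did without DKO replicates 1 and 2, where 1 library was left in that group and assumed to vary like sgControl.

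In deviations from group means, same-numbered libraries of different groups correlated at -0.058 to 0.039, untreated and TPA-treated U937 and both lines included. Other-numbered ones correlated at -0.045 to 0.055. With 2 libraries a group, in MOLM-13 and OCI-AML-3, the values of the other-numbered libraries mirror those of the same-numbered. No sharing by replicate number was seen, but whether same-numbered libraries were prepared together cannot be told from these values. With the replicate block, 136 of 137 values kept their call, and the rise of FCGR1A with TPA in U937 DKO stayed at 0.15 but missed the threshold (adjusted p = 0.062).

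With 2 libraries a group in MOLM-13 and OCI-AML-3, and 20 reads or fewer a group for FCGR2B, FCGR2C and FCGR3A in several controls, fold changes of these genes are imprecise.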
